A study of Mus musculus with 6 samples.

Results

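Amino acid transporters are the membrane proteins that move amino acids, and close relatives of amino acids such as taurine, betaine, creatine and GABA, into and out of cells and organelles. The genes described here were every row of the count files whose symbol begins with Slc1a, Slc3a, Slc6a, Slc7a, Slc36a, Slc38a or Slc43a followed by a digit, with 1 family 1 row left out. That rule found 63 of the 23282 rows, of which 60 were transporter genes of 7 families and 3 were opposite-strand rows named after a transporter (Slc36a1os, Slc6a19os and Slc7a6os). Male C57BL/6N mice began a high-fat diet at 8 weeks of age and ate it for 12 weeks, and after the first 8 weeks received either vehicle or atractylodin, a compound of Atractylodes plants, at 10 mg/kg by mouth on 5 days a week for 4 weeks. Liver RNA was profiled in 3 vehicle and 3 atractylodin libraries by QuantSeq, which reads the 3' end of each transcript. Every animal ate the high-fat diet, and no group on another diet was part of the comparison. Libraries carry a number within their group, but the labels do not state that each came from its own mouse, so the p-values reflect library-to-library spread that may be technical.

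The liver takes up amino acids from portal blood for protein synthesis, gluconeogenesis, urea and glutathione. Sodium-coupled carriers of family 38 concentrate small neutral amino acids in the cell. Carriers of family 7 either work alone on cationic amino acids or act as light chains that reach the membrane only when joined to a heavy chain of family 3. Proton-coupled carriers of family 36 and some members of family 38 sit on lysosomes, where they export amino acids and take part in nutrient sensing by mTORC1. The kinase GCN2 and the transcription factor ATF4 raise several of these genes when amino acids are short.

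Total counts ran from 1831461 in vehicle 1, the shallowest library, to 12565393, and the other 4 libraries had at least 9871762. Levels are given as CPM, the counts scaled to a common library total. A count of 3 equalled 1.61 CPM in vehicle 1 and at most 0.313 CPM in the other libraries, so transporters of a few CPM were measured least precisely there. Hepatocyte markers summed to 85862 CPM or more in every one of these libraries labelled as liver. Adipocyte markers summed to at most 62.3 CPM, with Adipoq at 0 in all. Pancreatic acinar markers summed to 0 to 0.515 CPM with vehicle and 0.627 to 11.9 CPM with atractylodin, without overlap, and none had enough counts to be tested.

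Of the 63 rows, 27 passed the filter on low counts and were tested, 26 of them transporters. Their levels spanned from Slc38a4 at a mean of 863 CPM over all libraries to Slc1a3 at 1.44 CPM. One 3' end is read per transcript, so CPM was not divided by length. Slc38a4 alone held 31.3% to 40.96% of all transporter counts, and the 4 most abundant genes (Slc38a4, Slc7a2, Slc38a3 and Slc38a2) held 68.1% to 78.8%. The 36 untested rows had at most 50 counts each over all 6 libraries, and 6 of them had no count at all. At the edge of the filter, the lowest tested mean was 1.44 CPM and the highest untested mean was 0.873 CPM.

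**Figure D1:**
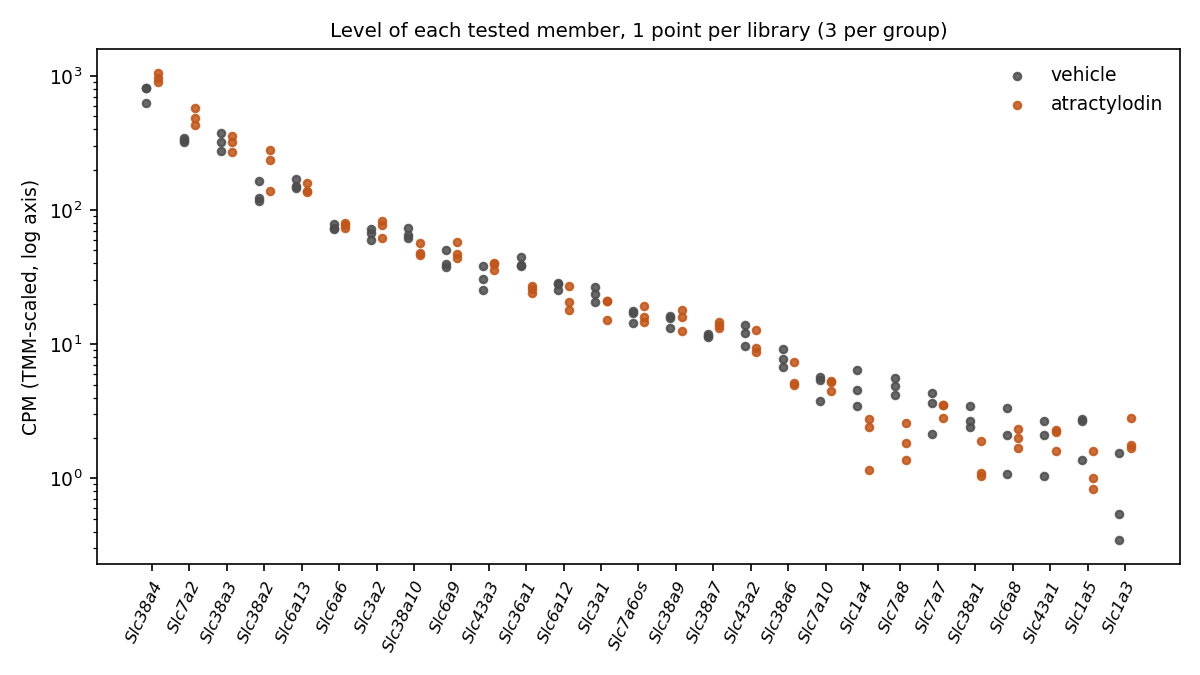
Level of each of the 27 tested rows in CPM on a log axis, 1 point per library, ordered by mean level, with vehicle in grey and atractylodin in orange. Slc38a4 is highest at 863 CPM on average, and the groups separate without overlap for Slc7a2, Slc36a1, Slc38a10 and Slc7a8 among others.

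With atractylodin, the arginine carrier Slc7a2 and the neutral amino acid carrier Slc38a4 rose, and the lysosomal carrier Slc36a1, the family 38 carrier Slc38a10 and the light chain Slc7a8 fell. These 5 of 27 tested rows (18.5%) passed an adjusted p of 0.05 in edgeR's quasi-likelihood test, against 7.25% of all 12505 tested rows. The 2 rises compare with 3.92% of all rows called higher, and the 3 falls with 3.33% called lower. Vehicle and atractylodin did not overlap in CPM for 9 of the 27 (33.3%), against 26.2% of all tested rows. The median log2 fold change of the tested members was -0.07, against -0.0015 over all tested rows, and its sign changed when vehicle 1 was left out or the filter was changed. Members were chosen with earlier results of these data known, so these shares are descriptions.

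Slc7a2 and Slc36a1, alone among the 5, passed each time 1 of the 6 libraries was dropped. Slc7a8, Slc38a4 and Slc38a10 each lost the call in 5 of those 6 refits, and the count of calls was 2 without vehicle 1, 2 or 3 in turn, 3 without atractylodin 2 or 3 and 4 without atractylodin 1. The balance of calls also moved with the scaling: 1 rise and 3 falls were called with upper quartile scaling and with total counts, and 1 rise and 2 falls with RLE scaling. Over all rows, 490 were called higher and 416 lower, and total counts gave 312 and 707.

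**Figure D2:**
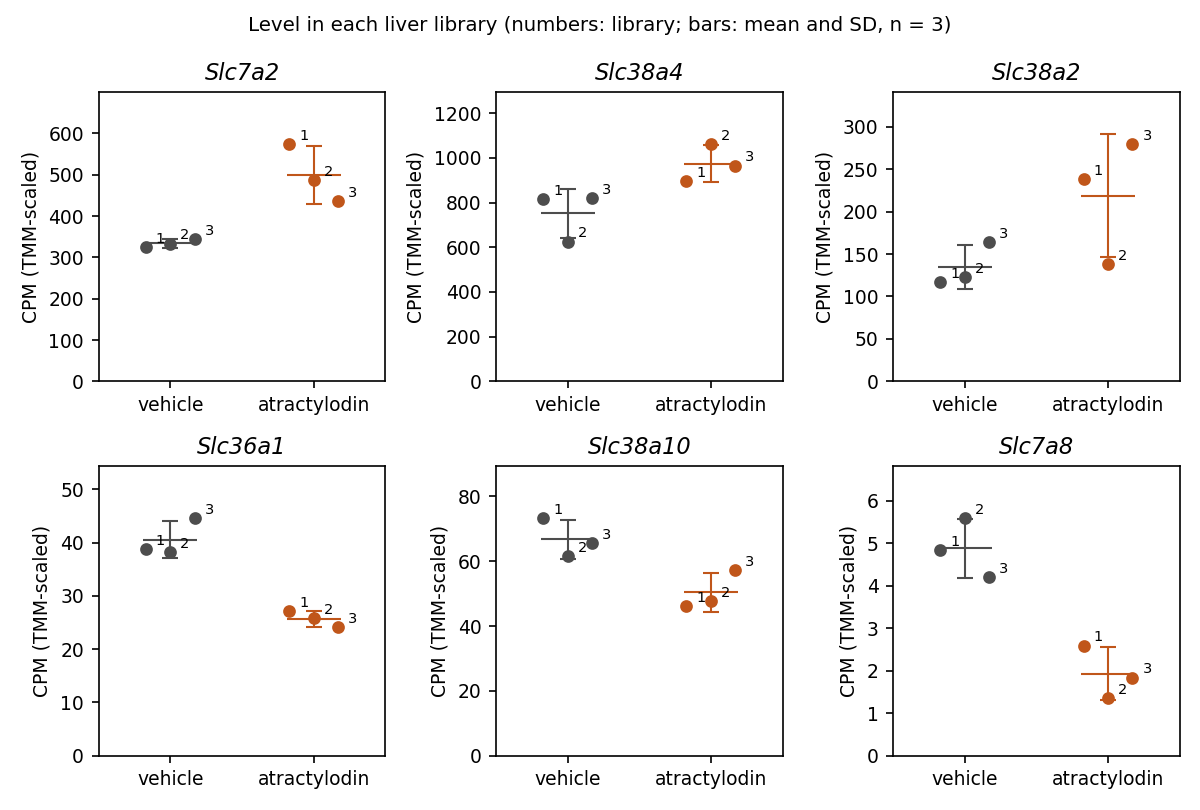
CPM of 6 transporter genes in each library, with the library number beside each point and the mean and SD of 3 libraries as bars; each vertical axis starts at 0. Slc7a2, Slc38a4, Slc36a1, Slc38a10 and Slc7a8 show no overlap between vehicle and atractylodin, while atractylodin 2 of Slc38a2, at 138 CPM, lies among the vehicle libraries.

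Slc7a2 encodes CAT2, a sodium-independent carrier of arginine, lysine and ornithine that is the main cationic amino acid transporter of hepatocytes (GRCm38 chromosome 8, 40862396 to 40922308, plus strand). Its level was 324, 333 and 344 CPM in vehicle 1, 2 and 3, and 574, 487 and 435 CPM in atractylodin 1, 2 and 3. Every atractylodin library lay above every vehicle library. The mean rose 1.49-fold, from 334 ± 10.2 to 499 ± 70.0 CPM (SD, n = 3), which edgeR estimated as 0.58 ± 0.10 on the log2 scale (SE, adjusted p = 0.00242). Leaving out any 1 library kept the log2 fold change between 0.47 and 0.67. Slc7a2 shares 635 of its 9135 annotated exon bases with Gm26584 on the opposite strand, and whether the counting used strand is not given in the sources used here.

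The other cationic carriers were close to the detection limit. Slc7a1, the housekeeping arginine carrier CAT1, had 16 counts over the vehicle libraries and 34 over the atractylodin libraries. Slc7a3 had 1 and 3 counts, Slc7a4 had 7 and 11, and the lysosomal relative Slc7a14 had 21 and 28. Slc7a2 therefore made up nearly all of the summed cationic carrier level, which was 326 to 346 CPM with vehicle and 438 to 576 CPM with atractylodin. Arginase 1 (Arg1), the urea cycle enzyme that consumes arginine in hepatocytes, was at 986 ± 157 and 1110 ± 56.8 CPM (SD, n = 3) and did not pass (edgeR adjusted p = 0.399).

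Family 38 held most of the transporter counts. Of its 8 tested genes, 1 rose, 1 fell and 6 did not pass, while 3.92% of all tested rows were called higher and 3.33% lower. Without vehicle 1, edgeR called 0 of the family higher and 0 lower. The family summed to 1125 to 1422 CPM with vehicle and 1494 to 1655 CPM with atractylodin. Slc38a4 encodes SNAT4, a sodium-coupled carrier of alanine and other small neutral amino acids, and is an imprinted gene with high expression in liver (chromosome 15, 96994820 to 97055956, minus strand). Its level was 814, 626 and 818 CPM in the vehicle libraries and 897, 1061 and 965 CPM in the atractylodin libraries. The groups did not overlap, but vehicle 3 and atractylodin 1 were close. The mean rose from 753 ± 110 to 974 ± 82.5 CPM (SD, n = 3), and edgeR fitted a 1.30-fold rise, 0.37 ± 0.11 on the log2 scale (SE, adjusted p = 0.0496). That call sat at the threshold: dropping any library but atractylodin 1 ended it, and total counts gave a log2 fold change of 0.29 with an adjusted p of 0.111. The 250 bases upstream of its outermost start in RefSeq (GRCm38.p6, chr15:97055957-97056206, minus strand) are shown because it is the most abundant member. They held neither of the motifs described for Slc7a11 and Slc36a1 further on, so nothing is in capitals.
Slc38a4: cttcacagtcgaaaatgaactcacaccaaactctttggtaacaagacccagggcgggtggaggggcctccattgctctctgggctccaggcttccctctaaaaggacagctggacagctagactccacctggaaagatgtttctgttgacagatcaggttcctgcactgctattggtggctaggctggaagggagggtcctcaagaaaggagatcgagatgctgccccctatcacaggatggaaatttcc

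Slc38a2 encodes SNAT2, a carrier of the same transport system that amino acid shortage and osmotic stress are known to induce (chromosome 15, 96687392 to 96699730, minus strand). It stood at 117, 123 and 164 CPM with vehicle and at 238, 138 and 279 CPM with atractylodin. Atractylodin 2 lay below vehicle 3, while atractylodin 1 and 3 lay above every vehicle library. The log2 fold change was 0.69 ± 0.32 (SE) and did not pass (edgeR adjusted p = 0.319). Without atractylodin 2 it was 0.93 with an edgeR adjusted p of 0.00151, but dropping the lowest atractylodin library raises the estimate by construction. With all libraries kept and the replicate number as a block, the edgeR adjusted p was 0.0331. The call thus depended on the fit.

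Slc38a1, the third gene of this chromosome 15 cluster (96571418 to 96642913, minus strand) and the carrier SNAT1, was rare in these livers. Its level was 2.69, 3.43 and 2.43 CPM with vehicle and 1.89, 1.04 and 1.09 CPM with atractylodin. The groups did not overlap, but these values rest on 5 to 40 counts per library. The log2 fold change was -1.10 ± 0.45 (SE, edgeR adjusted p = 0.157), with an unadjusted p of 0.0245. The neighbours on this chromosome therefore had estimates of opposite sign at levels that differ by orders of magnitude. Summed, Slc38a1, Slc38a2 and Slc38a4 gave 752 to 985 CPM with vehicle and 1137 to 1246 CPM with atractylodin.

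Slc38a3 encodes SNAT3, a glutamine, histidine and asparagine carrier of hepatocytes that can run in either direction (chromosome 9, 107650634 to 107669530). It was at 377, 277 and 325 CPM with vehicle and 271, 355 and 321 CPM with atractylodin. The ranges overlapped almost fully, and edgeR estimated -0.04 ± 0.12 on the log2 scale (SE, adjusted p = 0.884). Its relative Slc38a5 had 1 count in each group. Of 17 tested enzymes of glutamine, ammonia and urea nitrogen, 1 rose (Asns) and 0 fell, and without vehicle 1 none passed in edgeR. Asns passed the filter on low counts only through its atractylodin libraries, and it is counted again among the amino acid response genes further on. Total counts scaling called 1 of these enzymes higher and 2 lower, and DESeq2 called 2 higher. Over all tested rows, edgeR called 3.92% higher and 3.33% lower. Glutaminase 2 (Gls2) was at 187 ± 18.2 and 200.2 ± 14.0 CPM (SD, n = 3, edgeR adjusted p = 0.579).

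The remaining members of family 38 are less studied. Slc38a10 encodes SNAT10, reported to carry glutamine, glutamate and aspartate (chromosome 11, 120103960 to 120151346, minus strand). It was at 73.2, 61.5 and 65.5 CPM with vehicle and 46.2, 47.8 and 57.3 CPM with atractylodin, without overlap. The mean fell from 66.7 ± 5.96 to 50.4 ± 5.98 CPM (SD, n = 3), and the fold fitted by edgeR was 1.31, or -0.38 ± 0.12 on the log2 scale (SE, adjusted p = 0.0497). DESeq2 gave an adjusted p of 0.0949 and limma-voom 0.0706, and dropping any library but atractylodin 3 also ended the call. Slc38a10 shares 367 of its 6421 exon bases with Gm11769 on the opposite strand. Slc38a6 was at 7.90 ± 1.19 and 5.81 ± 1.36 CPM (SD, n = 3, edgeR adjusted p = 0.405). Slc38a8 had no count, and Slc38a11 had 5 counts with vehicle and 1 with atractylodin.

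Among the lysosomal carriers of these families, 1 fell and the others that were tested did not pass, while 3.33% of all tested rows were called lower. Slc15a4, a lysosomal carrier of another family, rose and is given further on. Slc36a1 encodes PAT1, a proton-coupled exporter of glycine, alanine and proline from lysosomes that has been linked to mTORC1 signalling (chromosome 11, 55204350 to 55236330, plus strand). Its level was 38.8, 38.3 and 44.5 CPM in the vehicle libraries and 27.2, 25.8 and 24.1 CPM in the atractylodin libraries. The groups were well separated, with little spread within each. The mean fell from 40.5 ± 3.48 to 25.7 ± 1.53 CPM (SD, n = 3), and edgeR fitted a 1.59-fold fall, -0.67 ± 0.13 on the log2 scale (SE, adjusted p = 0.00347). Dropping any 1 library kept the log2 fold change between -0.72 and -0.58. No exon of another gene overlaps its exons in the annotation.

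Slc38a7, the lysosomal glutamine and asparagine exporter SNAT7, had values of 11.8, 11.4 and 11.3 CPM with vehicle and 14.5, 13.8 and 13.2 CPM with atractylodin. The groups did not overlap, yet on 22 to 158 counts per library the difference did not pass (log2 fold change 0.27 ± 0.18, SE, edgeR adjusted p = 0.404). Slc38a9, the arginine-sensing carrier that signals to mTORC1, was at 15.6, 16.1 and 13.2 CPM with vehicle and 18.1, 16.0 and 12.5 CPM with atractylodin (log2 fold change 0.06 ± 0.18, SE, edgeR adjusted p = 0.879). The other proton-coupled genes were scarce: Slc36a4 had 16 counts with vehicle and 8 with atractylodin, Slc36a2 had 0 and 3, and Slc36a3 had none. Of 31 tested genes of amino acid sensing upstream of mTORC1, 1 rose and 0 fell, with a median log2 fold change of -0.04. Over all tested rows, 3.92% were called higher and 3.33% lower. The rise was of Rheb, the GTPase that activates mTORC1, from 26.6 ± 1.23 to 40.5 ± 6.84 CPM (SD, n = 3, edgeR adjusted p = 0.0115).

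The motif CACGTG, bound by TFEB, a regulator of lysosomal genes, and by many other factors, was searched for. The search was made in RefSeq windows of 250 bases upstream of each start, with a motif chosen after the values were seen that reads the same on both strands. It was in 8 of the 45 members matched in that table (17.8%) and in 6.86% of all 27024 symbols. GC content was taken only for the tested members, 20 of the 45 matched. Their windows had a median of 59.6%, against 52.4% over all windows. The members that held the motif were Slc1a6, Slc1a7, Slc36a1, Slc38a5, Slc38a7, Slc43a1, Slc6a3 and Slc7a14. Of the carriers called lysosomal here, Slc36a1, Slc38a7 and Slc7a14 held it and Slc38a9 lacked it. The family 36 genes Slc36a3 and Slc36a4 also lacked it, and any part of TFEB was not tested. Slc36a1, which fell, held it at chr11:55204299-55204324 (plus strand), and Slc38a7, which did not pass, held it at chr8:95853510-95853535 (minus strand). The match is in capitals, and a match is a string of letters, not a site shown to be bound.
Slc36a1: aatggagcggCACGTGacctgggcta
Slc38a7: gattcaggctCACGTGttacttgagt

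Heteromeric carriers need a heavy chain, and both heavy chain genes exceeded their light chains by far. Slc3a2, which encodes 4F2hc (CD98) and pairs with most light chains, was at 60.3, 67.0 and 72.6 CPM with vehicle and 83.6, 62.2 and 78.1 CPM with atractylodin. The ranges overlapped (log2 fold change 0.15 ± 0.12, SE, edgeR adjusted p = 0.514). Slc3a1, which encodes rBAT, was at 23.7, 20.5 and 26.9 CPM with vehicle and 20.9, 15.2 and 21.1 CPM with atractylodin (log2 fold change -0.31 ± 0.17, SE, edgeR adjusted p = 0.306). Its usual light chain Slc7a9 had only 2 counts with vehicle and 3 with atractylodin. Slc3a1 shares 601 of its 2271 exon bases with Prepl on the opposite strand, which stood at 21.9 to 33.9 CPM, so its level is uncertain if strand was not used in counting.

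All 10 light chain genes together summed to 10.8 to 16.4 CPM with vehicle and 11.3 to 12.1 CPM with atractylodin, and 3 of them were tested. Slc7a8 encodes LAT2, an exchanger of neutral amino acids found on basolateral membranes of epithelia (chromosome 14, 54722209 to 54781946, minus strand). Its level was 4.84, 5.58 and 4.20 CPM with vehicle and 2.59, 1.36 and 1.84 CPM with atractylodin, without overlap. The mean fell from 4.88 ± 0.69 to 1.93 ± 0.62 CPM (SD, n = 3), and edgeR fitted a 2.52-fold fall, -1.33 ± 0.36 on the log2 scale (SE, adjusted p = 0.0309). These values rest on 9 to 65 counts per library, and dropping any library but atractylodin 1 ended the call. Without vehicle 1, where it had 9 counts, the log2 fold change was -1.33 with an adjusted p of 0.0702.

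Slc7a7 (y+LAT1, an exporter of cationic amino acids) and Slc7a10 (Asc-1, a carrier of small neutral amino acids) did not pass. Slc7a7 was at 2.15, 4.29 and 3.64 CPM with vehicle and 3.49, 2.82 and 3.51 CPM with atractylodin (log2 fold change -0.16 ± 0.34, SE, edgeR adjusted p = 0.836). Slc7a10 was at 3.77, 5.67 and 5.42 CPM with vehicle and 4.48, 5.33 and 5.18 CPM with atractylodin (log2 fold change -0.07 ± 0.27, SE, edgeR adjusted p = 0.915). Both overlapped between groups, and both share exon bases with an opposite-strand gene, Oxa1l for Slc7a7 and Lrp3 for Slc7a10. The remaining light chains were near the limit of detection in every library. Slc7a5 (LAT1, the leucine carrier of growing cells) had 6 counts with vehicle and 10 with atractylodin, Slc7a6 had 4 and 14, and Slc7a11 had 8 and 5. Slc7a13 had 0 and 9, of which atractylodin 2 held 8, Slc7a15 had 2 and 4, and Slc7a12 had no count in any library. The row Slc7a6os, next to Slc7a6 on the other strand, was at 14.4 to 17.8 CPM with vehicle and 14.6 to 19.4 CPM with atractylodin (log2 fold change 0.04 ± 0.17, SE).

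Slc7a11 encodes xCT, the cystine and glutamate exchanger, and is a textbook target of the amino acid response, so its promoter is shown although it was hardly detected. The element that ATF4 and C/EBP proteins are known to bind, TGATGNAA on either strand, was in 2 of the 45 matched members (4.44%), Slc7a7 and Slc7a11, against 3.91% of all symbols. Slc7a11 held it once on each strand within 27 bases at chr3:50443653-50443679 (minus strand), with the matches in capitals. The 4 called members in the promoter table (Slc36a1, Slc38a4, Slc38a10 and Slc7a8) did not hold it in this window, which says nothing of sites elsewhere in those genes.
Slc7a11: TGATGCAAacctggagaatTTGCATCA

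**Figure D3:**
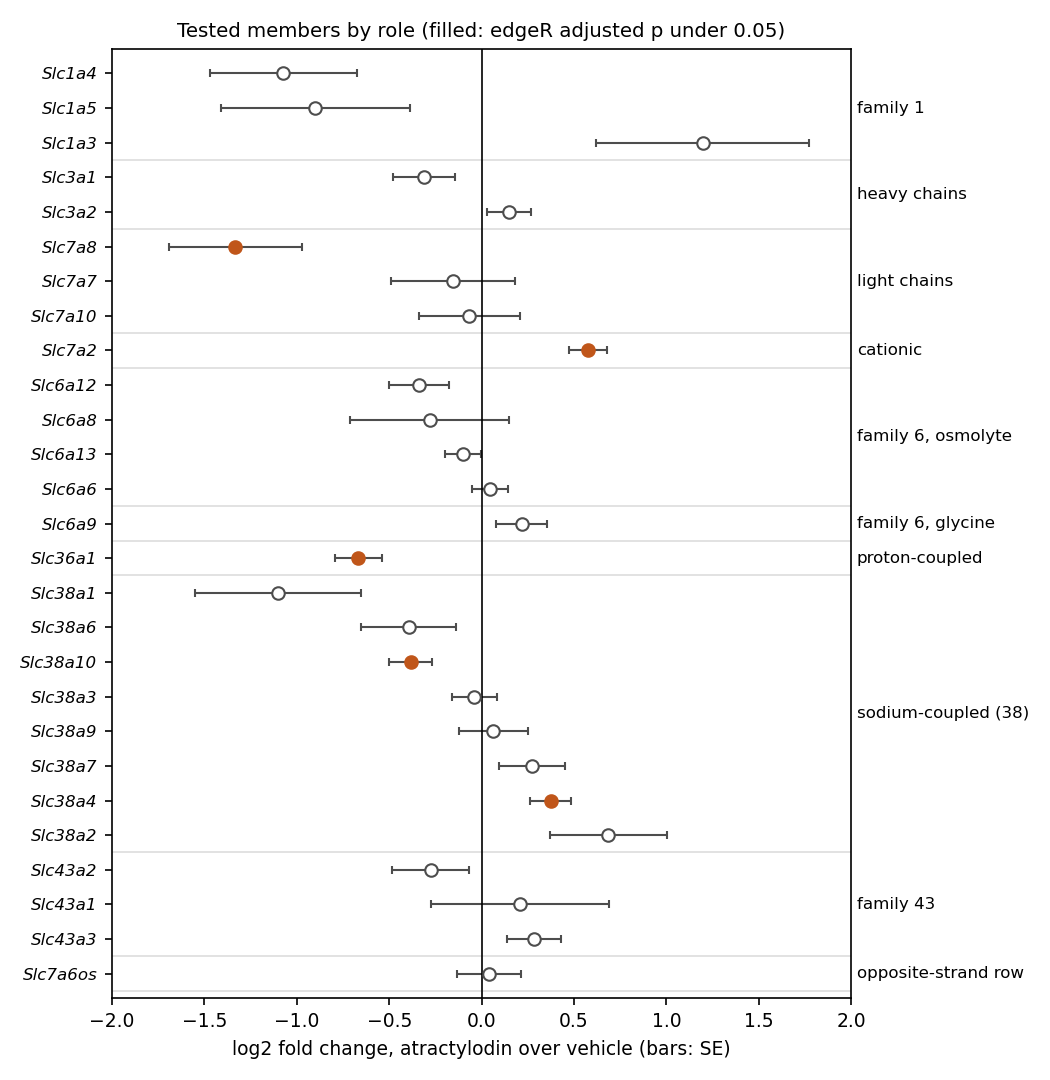
Log2 fold change of the 27 tested rows, atractylodin over vehicle, as points with SE bars grouped by role; filled points passed an adjusted p of 0.05 in edgeR. Filled are Slc7a2 at 0.58, Slc38a4 at 0.37, Slc38a10 at -0.38, Slc36a1 at -0.67 and Slc7a8 at -1.33, and the widest bars belong to genes of under 10 CPM such as Slc1a3.

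The family 1 genes reported here were scarce. None of the 3 that were tested passed in edgeR, DESeq2 or limma-voom, while 1 had an unadjusted p under 0.05. Slc1a4 encodes ASCT1, a sodium-dependent exchanger of alanine, serine and cysteine. It was at 6.46, 4.55 and 3.48 CPM with vehicle and 2.39, 1.15 and 2.76 CPM with atractylodin, without overlap (log2 fold change -1.07 ± 0.40, SE, edgeR adjusted p = 0.115, unadjusted p = 0.0143). Slc1a5 encodes ASCT2, a glutamine exchanger, and was at 2.69, 2.75 and 1.37 CPM with vehicle and 0.996, 0.835 and 1.59 CPM with atractylodin (log2 fold change -0.90 ± 0.51, SE, edgeR adjusted p = 0.329). Slc1a3 encodes the glutamate carrier GLAST (EAAT1) and had the opposite sign. It was at 0.538, 0.343 and 1.54 CPM with vehicle and 2.79, 1.78 and 1.67 CPM with atractylodin (log2 fold change 1.20 ± 0.58, SE, edgeR adjusted p = 0.239), on 1 to 28 counts per library. The other family 1 genes reported here had too few counts to be tested. The neuronal and epithelial glutamate carrier Slc1a1 had 1 count with vehicle and 7 with atractylodin, Slc1a6 had 4 and 0, and Slc1a7 had 2 and 3.

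The direction of the low-level transporters was counted separately. Of the 10 tested members at or under 10 CPM, a limit chosen after the values were seen, 8 had a lower estimate with all libraries, but 6 without vehicle 2 and 7 without atractylodin 1. Of all 5257 tested rows at or under that level, 53.7% had a lower estimate. Some markers of other liver cells also fell. Of 4 tested cholangiocyte markers 2 fell and 0 rose, with all 7 listed markers summing to 48.9 to 59.8 CPM with vehicle and 26.6 to 29.8 CPM with atractylodin. Of 10 endothelial markers 3 fell and 1 rose (416 to 432 and 367 to 403 CPM), but without vehicle 1 none of them passed in edgeR. Of 12 tested macrophage markers none passed in edgeR, while DESeq2 called 1 lower and limma-voom none (368 to 530 and 301 to 451 CPM). An unadjusted p under 0.05 was found for 4 of the 12, and the share of all rows under it is not given here. The part of these cell types in the transporter values was not tested. In whole liver, fewer cells of a type and less RNA per cell cannot be told apart. Stellate markers (420 to 507 and 367 to 504 CPM) and lymphocyte markers (1.61 to 3.96 and 1.10 to 4.18 CPM) overlapped between groups, as did the sums of the neutrophil (5.58 to 8.07 and 1.15 to 22.5 CPM) and erythroid markers (1748 to 2232 and 1396 to 2707 CPM). Of 4 tested erythroid markers, however, 1 fell and 0 rose. DESeq2, limma-voom, total counts scaling and edgeR without vehicle 1 each called 1 erythroid marker lower as well. The share of all tested rows called lower was 3.33%.

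Zonation markers are given because several carriers differ along the liver lobule. Of 8 periportal markers 1 rose and 1 fell, and of 9 pericentral markers 1 rose and 3 fell. The shares over all tested rows were 3.92% higher and 3.33% lower. The rise among the periportal markers was of Pck1, which raised that list's sum from 2258 to 2977 CPM with vehicle to 4596 to 5445 CPM with atractylodin. The pericentral sum was 9007 to 9419 CPM and 9094 to 10533 CPM. Total counts scaling and edgeR without vehicle 1 each called 0 pericentral markers higher and 3 lower.

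Of the 4 tested carriers of family 6 that handle osmolytes and related compounds, none passed in edgeR, DESeq2 or limma-voom, and 1 had an unadjusted p under 0.05. Slc6a13, the GABA and taurine carrier GAT2 of hepatocytes, was at 146, 170 and 151 CPM with vehicle and 160, 140 and 136 CPM with atractylodin (log2 fold change -0.10 ± 0.10, SE, edgeR adjusted p = 0.603). Slc6a6, the taurine carrier TauT, was at 73.7, 78.1 and 72.1 CPM and at 73.4, 80.7 and 77.7 CPM (log2 fold change 0.05 ± 0.10, SE, edgeR adjusted p = 0.826). Their SEs of 0.10 were the smallest of the tested members. Slc6a8, the creatine carrier, was rare at 2.18 ± 1.14 and 2.01 ± 0.32 CPM (SD, n = 3, edgeR adjusted p = 0.765).

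Slc6a12, the betaine and GABA carrier BGT1, lies just downstream of Slc6a13 on chromosome 6 (121343076 to 121365775, plus strand). It was at 25.3, 28.8 and 27.9 CPM with vehicle and 17.9, 27.3 and 20.5 CPM with atractylodin. Atractylodin 2 lay among the vehicle libraries and the other two lay below them. The log2 fold change was -0.34 ± 0.16 (SE) with an unadjusted p of 0.049 and an edgeR adjusted p of 0.23. Of 16 tested enzymes of glycine, serine, betaine and creatine metabolism, 4 fell and 0 rose, while 3.33% of all tested rows were called lower. DESeq2 called 3 of the 16 lower, limma-voom 4 and edgeR without vehicle 1 called 3. Total counts scaling called 7 lower, but it also raised the falls called over all rows from 416 to 707. Bhmt, which uses betaine to remethylate homocysteine, fell from 2651 ± 119 to 1378 ± 194 CPM (SD, n = 3, edgeR adjusted p = 5.05e-05). Gldc, of the glycine cleavage system, fell from 51.9 ± 6.47 to 25.8 ± 3.93 CPM (SD, n = 3, edgeR adjusted p = 0.000288), and Gamt, the last enzyme of creatine synthesis, from 176 ± 23.4 to 93.8 ± 18.0 CPM (SD, n = 3, edgeR adjusted p = 0.0031).

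Slc6a9 encodes the glycine carrier GlyT1 and was the only tested neutral amino acid or glycine carrier of family 6. It was at 39.3, 50.6 and 37.9 CPM with vehicle and 47.4, 44.3 and 58.3 CPM with atractylodin (log2 fold change 0.22 ± 0.14, SE, edgeR adjusted p = 0.393). It shares 1429 of its 5141 exon bases with Ccdc24 on the opposite strand, at 15.2 to 31.7 CPM, and their reads may not have been told apart. The intestinal and renal carrier Slc6a19 had 1 count over all vehicle libraries and none with atractylodin. The neuronal carriers of family 6 had few or no counts, and the serotonin carrier Slc6a4 was the highest of them with 26 counts with vehicle and 15 with atractylodin. Slc6a7, a proline carrier, had 3 and 8 counts, and the GABA carrier Slc6a11 had 5 and 0. Slc6a14 and Slc6a15 had no count, as had the opposite-strand row Slc6a19os, and Slc36a1os had 1.

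Family 43 holds sodium-independent carriers, and none of its 3 genes passed in edgeR, DESeq2 or limma-voom or had an unadjusted p under 0.05 in edgeR. Slc43a3, a purine nucleobase carrier grouped with this family by sequence, was at 30.7, 38.1 and 25.5 CPM with vehicle and 40.2, 35.7 and 39.4 CPM with atractylodin (log2 fold change 0.28 ± 0.15, SE, edgeR adjusted p = 0.272). Slc43a2, the large neutral amino acid carrier LAT4, was at 9.69, 14.0 and 12.0 CPM and at 12.7, 9.40 and 8.69 CPM (log2 fold change -0.27 ± 0.21, SE, edgeR adjusted p = 0.489). Slc43a1, the related carrier LAT3, was at 1.94 ± 0.84 and 2.02 ± 0.38 CPM (SD, n = 3, edgeR adjusted p = 0.849).

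Summed over all 60 transporter rows, the level was 2223, 1996 and 2250 CPM in vehicle 1, 2 and 3 and 2577, 2590 and 2581 CPM in atractylodin 1, 2 and 3. The groups did not overlap, and the ratio of the means was 1.20. Without Slc38a4 and Slc7a2 the sums were 1085, 1037 and 1088 CPM and 1107, 1042 and 1180 CPM, which overlap, with a ratio of 1.04. The higher sum thus came mostly from those 2 genes. As a share of the unscaled counts, the 63 rows took 0.211% to 0.232% with vehicle and 0.248% to 0.256% with atractylodin.

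Carriers of other families were compared as a separate list. Of 12 tested genes of a list of other amino acid and peptide carriers and transporter partners, 3 rose and 0 fell, with a median log2 fold change of 0.14. Among all tested rows, 3.92% were called higher, and without vehicle 1 the list had 2 rises and 0 falls. Slc16a10 encodes TAT1, which exports aromatic amino acids, and rose from 32.7 ± 2.07 to 57.0 ± 14.2 CPM (SD, n = 3, edgeR adjusted p = 0.0109). Slc15a4, a histidine and peptide carrier of lysosomes, rose from 26.5 ± 2.28 to 41.9 ± 4.56 CPM (SD, n = 3, edgeR adjusted p = 0.00434). Nedd4l, a ubiquitin ligase that acts on several membrane carriers and channels, rose from 46.4 ± 4.71 to 67.8 ± 11.9 CPM (SD, n = 3, edgeR adjusted p = 0.0123). Of 21 tested enzymes of branched-chain and aromatic amino acids, none passed in edgeR, DESeq2 or limma-voom, and total counts scaling called 2 lower. An unadjusted p under 0.05 was found for 4 of them, without a share over all rows to set beside it.

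Genes of the amino acid response had higher estimates on balance, with 3 of 27 tested genes higher, 0 lower and a median log2 fold change of 0.23. Over all tested rows, 3.92% were called higher and 3.33% lower, and without vehicle 1 the list had 2 higher and 0 lower. Asns, which makes asparagine and is a standard ATF4 target, had 9 counts over the vehicle libraries and 59 over the atractylodin libraries (log2 fold change 2.35 ± 0.64, SE, edgeR adjusted p = 0.0308). It was at 0.538, 0.515 and 0.162 CPM with vehicle and 1.89, 1.78 and 1.92 CPM with atractylodin. Asns thus passed the filter on low counts only through the atractylodin libraries, and a fall from its vehicle level would not have been tested. The same gene is the rise counted among the glutamine, ammonia and urea enzymes. The hormone gene Fgf21 rose from 6.94 ± 3.30 to 16.8 ± 1.17 CPM (SD, n = 3, edgeR adjusted p = 0.00649) and the C/EBP family gene Cebpg from 62.0 ± 5.54 to 91.6 ± 18.3 CPM (SD, n = 3, edgeR adjusted p = 0.0135). Atf4 itself was at 113 ± 19.1 and 147 ± 18.3 CPM (SD, n = 3, edgeR adjusted p = 0.0904). In the cysteine, taurine and glutathione list, 2 of 13 tested genes rose, Gclc and Gclm, the subunits of glutamate-cysteine ligase, and 1 fell, Cbs, which makes cystathionine. DESeq2 called 3 of that list higher, total counts scaling 2, and limma-voom and edgeR without vehicle 1 only 1 each. Each of these fits called 1 lower. Gclc went from 258 ± 31.8 to 437 ± 25.2 CPM (SD, n = 3, edgeR adjusted p = 0.000226), while the cystine carrier Slc7a11 had 8 and 5 counts.

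**Figure D4:**
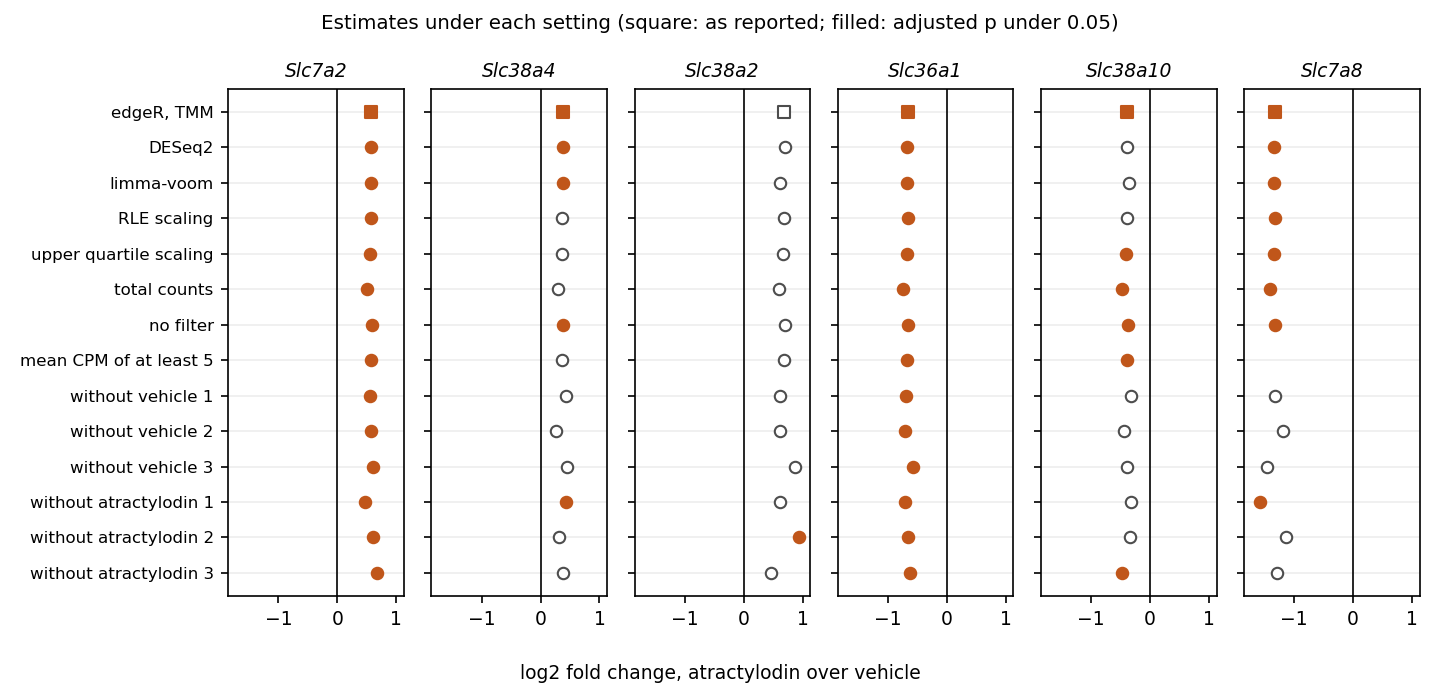
Log2 fold change of 6 transporter genes, atractylodin over vehicle, under each test, scaling, filter and left-out library; squares are the values as reported and filled symbols passed an adjusted p of 0.05. Slc7a2 and Slc36a1 are filled in every row, Slc7a8 has no value under a mean CPM of at least 5, and Slc38a2 is filled without atractylodin 2, at 0.93.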

How the data were processed

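Raw counts per gene symbol were deposited by the authors, 1 file per library, with no normalization. Per the labels' protocols, Trizol RNA (500 ng for a library) was made into Lexogen QuantSeq libraries. Bowtie2, bedtools and mm10 are named, without roles, per the submitters' processing notes. The annotation, the strand setting and the treatment of reads matching several genes are not given in the sources used here, so reads of overlapping genes and close paralogs may not have been told apart. Floors cover counting error only.

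Counts were filtered with filterByExpr, scaled by TMM and fitted over all 12505 retained rows with the robust quasi-likelihood F-test of edgeR 4.0.16 (R 4.3.3), without covariates, with Benjamini-Hochberg adjustment over all rows at 0.05. Each SE was derived as the log2 fold change over √F. CPM used TMM-scaled library sizes. The procedure was run on simulated counts with a single dispersion and changes placed only in well-counted rows. That run does not cover members with few counts, and its outcome is not given here. The alternatives were DESeq2 1.42.0, limma-voom (limma 3.58.1), RLE, upper quartile and total count scaling, filtering off, filtering at a mean CPM of 5, a replicate block and leaving out each library. Members, gene lists and alternatives were chosen with earlier results of these data known. Members were named if they passed, had an unadjusted p under 0.05, were among the 2 most abundant of their role, or were tested subunits of heteromeric carriers, and of each pathway list up to 3 passing genes in order of p. Others, such as Arg1, Gls2 and Atf4, were chosen after their values were seen. Counts of genes with an unadjusted p under 0.05 are given without the share over all tested rows, so they are descriptions only. Positions and exon overlaps are from GENCODE M21 (GRCm38, also called mm10), and promoter windows from RefSeq, where 45 of 63 members matched. One row of family 1 is not reported here. No batch or date is in the labels. Plots used matplotlib 3.10.9.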

Additional observations from a re-analysis of the deposited data

How the results depend on the processing

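The calls of Slc7a2 and Slc36a1 held under every test, scaling, filter and left-out library tried. The number of transporter genes called was 5 as reported, 3 with RLE scaling, 3 with a mean CPM of at least 5, and 2 to 4 when each library was dropped in turn. It was 4 with DESeq2, limma-voom, upper quartile scaling and total counts, and 5 with no filter. Requiring a mean CPM of at least 5 left 18 members to test, without Slc7a8. The median log2 fold change was -0.15 with total counts, 0.050 with no filter and 0.041 with a mean CPM of at least 5, and ranged from -0.084 to 0.044 when each library was dropped in turn. The cause was not tested, except that the filters changed which members were tested. With the replicate number as a block, 4 members were called: Slc38a2 gained the call (adjusted p = 0.0331) and Slc38a4 and Slc38a10 lost it. Deviations from the group means correlated at -0.03, -0.09 and 0.02 for numbers 1, 2 and 3, and not every library correlated best with its own number. These values gave no sign that equal numbers marked paired libraries, but 3 libraries per group are too few to decide it. Depth limits the members of a few CPM most, since vehicle 1 held 9 or fewer counts of Slc7a8, Slc38a1 and Slc1a5.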
